A study of Mus musculus with 2 samples.

Results

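The genomic neighbourhoods of 6 genes of the Hes and Hey family, Hes1, Hes5, Hes6, Hes7, Hey1 and Hey2, were examined in a map of Flag-tagged Hes5 on the genome of mouse mesodermal cells. Each gene was given a fixed window of 230 kb on the mm9 build, and every listed peak whose centre lay inside a window was taken. The windows held 16 of the 6505 peaks of the list. They were set by position, without use of the peak scores, but the members were chosen with earlier results of these data known. The assay was ChIP-seq: an antibody, here against the Flag tag, pulls down a protein with the DNA fixed to it, and that DNA is sequenced.

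The cells came from the AinV/Bry-GFP embryonic stem cell line, in which a green fluorescent protein reports Brachyury, an early mesoderm gene. On day 3.75 the Bry-GFP+ cells of embryoid bodies were sorted, and they then grew in StemPro-34 for 48 h with or without doxycycline. The library with doxycycline, labelled as expressing Flag-Hes5, gave the peak list, and the library without doxycycline was the negative control, whose values were not analysed here. There was 1 library per condition, so there was no replicate spread, no difference between conditions could be tested, and a listed peak could not be compared with the level in the control. The depth is unknown because the list gives no reads per peak, and it has no expression values, so the mesodermal label was not checked against marker genes. The Flag-Hes5 in these cells was made from an added sequence, so its amount need not be that of the native protein.

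Hes and Hey proteins are basic helix-loop-helix transcriptional repressors, and many of their genes are direct targets of Notch signalling through the DNA-binding protein RBPJ. Hes proteins are known to bind N-box and class C sites and to repress their own or each other's genes, a feedback that drives the oscillation of Hes1 and Hes7. The peaks below are positions in the pulldown of one family member, Flag-Hes5, around the genes of its relatives and its own gene.

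RefSeq promoter sequences (GRCm38.p6) were at hand for 4 of the 6 genes, and they are shown with the letters of 4 motifs marked. Each sequence is the 250 bases before the annotated gene start, read 5′ to 3′ on the strand of the gene. Capitals mark matches, on either strand, to GTGGGAA (RBPJ), CACNAG (N-box), CACGCG (class C) or CACGTG (class B E-box), and no matches overlapped in these sequences.
Hes5 (plus strand): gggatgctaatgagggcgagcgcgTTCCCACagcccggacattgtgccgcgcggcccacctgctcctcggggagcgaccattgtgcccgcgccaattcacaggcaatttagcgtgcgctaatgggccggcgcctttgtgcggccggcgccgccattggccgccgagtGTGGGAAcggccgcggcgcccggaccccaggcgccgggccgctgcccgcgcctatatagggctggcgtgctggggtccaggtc
Hes7 (plus strand): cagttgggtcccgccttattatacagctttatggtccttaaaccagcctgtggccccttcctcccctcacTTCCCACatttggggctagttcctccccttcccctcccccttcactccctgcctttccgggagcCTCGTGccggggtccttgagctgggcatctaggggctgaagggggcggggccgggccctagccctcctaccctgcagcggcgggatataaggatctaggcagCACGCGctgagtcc
Hey2 (minus strand): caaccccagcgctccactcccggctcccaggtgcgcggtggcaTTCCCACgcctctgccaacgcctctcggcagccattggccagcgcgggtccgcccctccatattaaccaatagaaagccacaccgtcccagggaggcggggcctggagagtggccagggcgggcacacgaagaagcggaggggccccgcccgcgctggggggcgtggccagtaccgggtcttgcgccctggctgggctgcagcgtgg
Hes6 (minus strand, the second of 2 starts): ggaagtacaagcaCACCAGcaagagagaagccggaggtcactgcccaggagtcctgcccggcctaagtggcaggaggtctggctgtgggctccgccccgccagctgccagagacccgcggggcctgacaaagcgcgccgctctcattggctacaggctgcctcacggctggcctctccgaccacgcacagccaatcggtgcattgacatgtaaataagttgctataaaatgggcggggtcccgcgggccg
The RBPJ letters occurred in the promoters of Hes5, Hes7 and Hey2. Hes5 held 2 matches, in opposite directions, and 0.161% of the 32851 promoter entries of the table held 2 or more in the same 250 bases. Hes7 and Hey2 held 1 match each, and 5.42% of all entries held at least 1. Hes7 also held 1 N-box and 1 class C match. The Hes6 sequence held 1 N-box match, and none of the 4 motifs was found in the 250 bases before the other Hes6 start. N-box letters are common, in 36.7% of all entries, whereas class C letters were in 7.62% and CACGTG in 6.02%, and none of these promoters held CACGTG. A match of letters is not a binding site, and these sequences of another build were not placed on the peaks.

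All 6 windows held at least 1 listed peak, against 34.4% of all 230 kb windows laid every 10 kb along the same 6 chromosomes. Hes1 had 5 peaks, Hes7 had 4, Hes5 had 3, Hes6 had 2, and Hey1 and Hey2 had 1 each. The windows of the chromosomes held 0.416 to 0.987 peaks on average. These means are all below 1, so any window with a peak lies above the mean of its own chromosome. Over the 6 windows the 16 peaks compare with a sum of 3.66 for those means, a ratio of 4.37, and without Hes1 the other 5 windows held 11 peaks against 3.16. The background windows were not limited to stretches with genes, so these values do not separate the Hes and Hey family from genes in general.

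**Figure D1:**
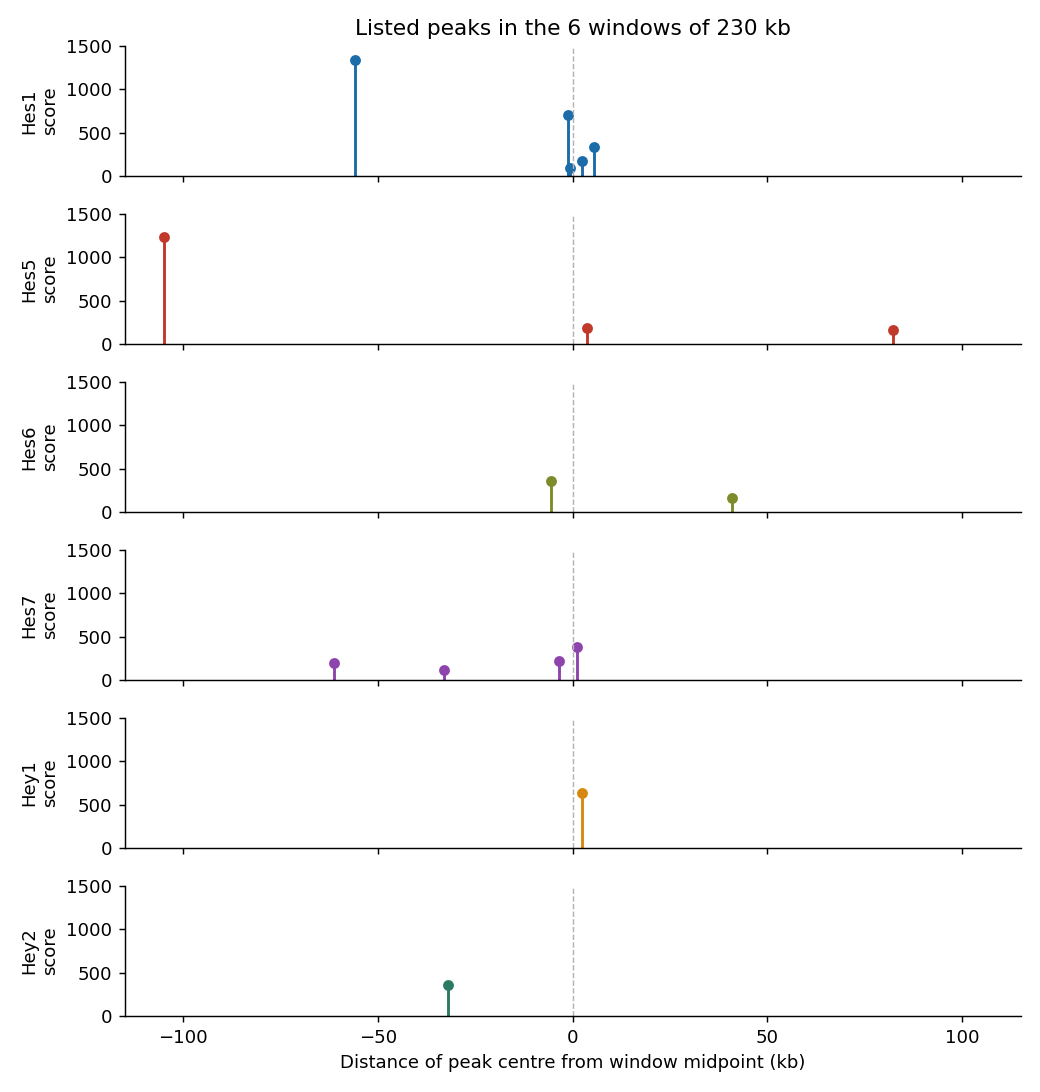
Position and score of the 16 listed peaks in the 6 windows. The horizontal axis gives the distance of each peak centre from the window midpoint in kb, and the height of each stem is the score in the deposited list. The highest stems are in the Hes1 and Hes5 windows, away from the midpoint, and Hey1 and Hey2 have 1 stem each.

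**Figure D2:**
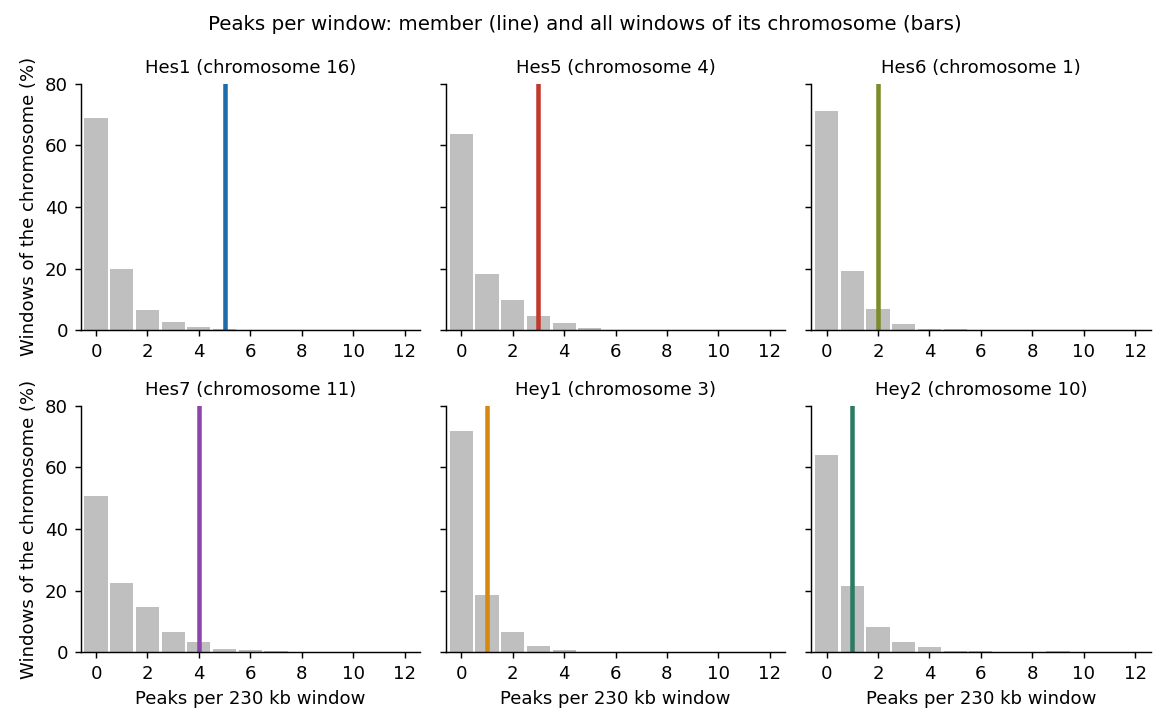
Peaks per 230 kb window. Grey bars give the percentage of all windows of the chromosome with each number of peaks, and the coloured line gives the member's own number. On all 6 chromosomes the most frequent number is 0, and on chromosome 11 49.2% of the windows hold at least 1 peak. The lines for Hes1 and Hes7 stand furthest to the right, at 5 and 4 peaks.

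Peaks also lay close to the window midpoints. In 5 of the 6 windows a peak centre lay within 10 kb of the midpoint, against 4.62% of all points laid every 10 kb on the 6 chromosomes. The midpoint is the centre of the fixed window and not an annotated gene start on mm9, so these distances are not distances to a promoter. The 10 kb limit was chosen after the positions were seen. Of the 16 peaks, 9 lay within it and 7 beyond it. The 9 near peaks had a median score of 337 and the 7 others had 193, although the 2 highest scores of all were among the others. At or above the median of the list were 5 of the 9 and 3 of the 7, where 50% of all peaks lie. The Hes1 window alone gave 4 of the 9 near peaks, and the difference in score was not tested.

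**Figure D3:**
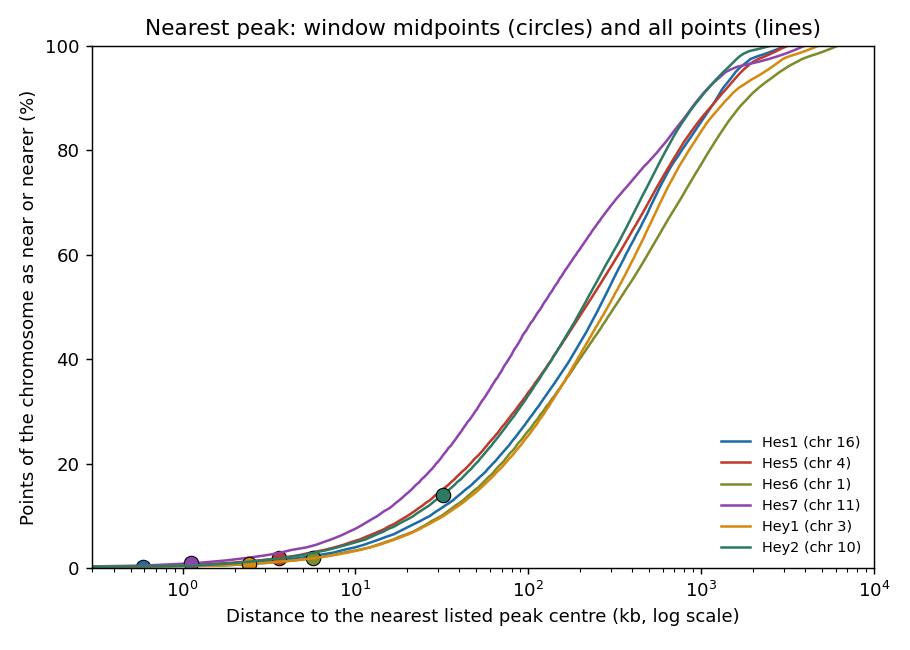
Distance to the nearest listed peak centre. Lines give, for each chromosome, the percentage of points that have a peak as near or nearer, on a log axis in kb, and circles give the window midpoints. The circles of 5 members lie between 0.588 and 5.66 kb, and that of Hey2 lies at 32.0 kb.

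Hes1, a repressor that keeps progenitor cells undifferentiated and represses its own promoter, had the most peaks in windows of 230 kb. With 250 kb on each side of the midpoint Hes7 led instead, with 6 peaks against 5, and with edges within 1 kb merged both had 4. The Hes1 window ran from 29950001 to 30180000 on chromosome 16. Of the windows of that chromosome, 31.1% held at least 1 peak and 0.822% held as many as 5. A tight group of 4 of the 5 peaks spanned 7.56 kb, from 30063253 to 30070809, on both sides of the midpoint.

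The first peak of the group, chr16:30063253-30064140, had a score of 702, rank 605 of 6505, and at 888 bp was the widest of the 16 peaks. The second, chr16:30064219-30064607, had a score of 98.0, rank 6321, the lowest of the 16. These neighbours, with edges 78 bp apart and centres 0.717 kb apart, were the only pair among the members whose centres lay within 1 kb. The third peak, chr16:30067052-30067521, scored 174 (rank 4956), and the fourth, chr16:30070209-30070809, scored 337 (rank 2171). The group therefore combined 1 peak of the upper quartile of the list, 1 above the median and 2 low ones. Groups of at least 4 peaks, each centre no more than 10 kb from the next, were few in the whole list. There were 16 in all with 1.35% of the peaks, and the Hes1 group was the only one on chromosome 16. With edges within 1 kb merged, its first 2 peaks become 1 and the group no longer reaches 4. The other groups were not counted with merged edges.

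The highest score in any of the windows belonged to the fifth Hes1 peak, chr16:30008923-30009424, which lay 55.8 kb below the midpoint. Its score of 1339 put it at rank 94 of the list and rank 3 of the 210 peaks of the chromosome, with a width of 502 bp. A peak as high was found in 0.727% of the windows of chromosome 16, and these windows include those that hold this peak. In the RefSeq gene order of GRCm38 the protein-coding genes next to Hes1 are Atp13a5, Atp13a4 and Opa1, a mitochondrial fusion gene, on the lower side and Cpn2, Lrrc15 and Gp5, which encodes a platelet glycoprotein, on the higher side. Peaks were not assigned to any of these genes.

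**Figure D4:**
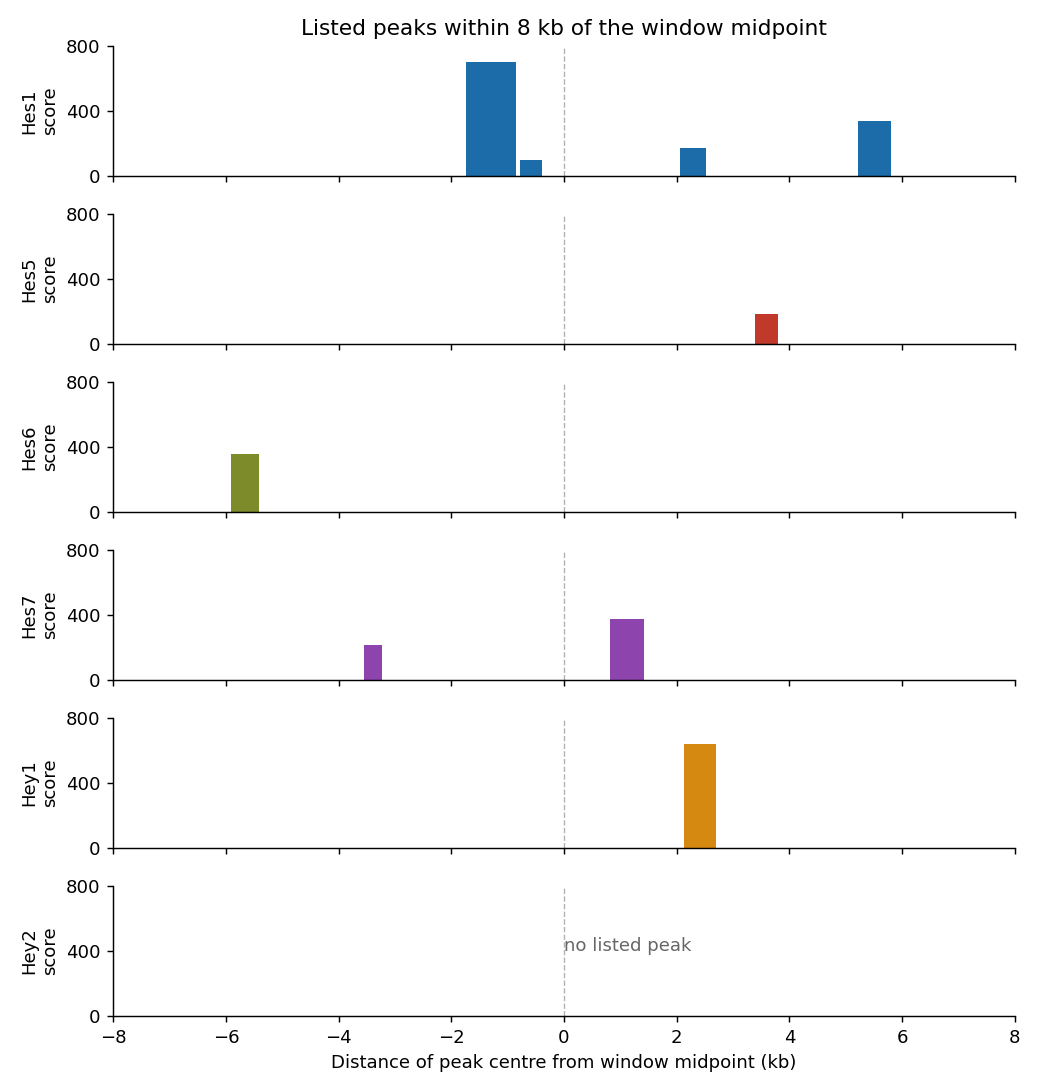
Listed peaks within 8 kb of the window midpoints. Each bar spans the width of a peak in kb along the horizontal axis, and its height is the score in the deposited list. Hes1 shows 4 bars, Hes7 shows 2, and Hes5, Hes6 and Hey1 show 1 each, while the row of Hey2 is empty.

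Hes5, the Notch effector that was itself expressed with a tag here, had 3 peaks between 154220001 and 154450000 on chromosome 4. The peak nearest the midpoint, chr4:154338385-154338793, lay 3.59 kb above it and was weak, with a score of 185 and rank 4577. Whether reads from the added Flag-Hes5 sequence were placed at the native gene was not tested. The strongest peak of the window was far away, 105 kb below the midpoint and 10.2 kb inside the edge. This peak, chr4:154229812-154230500, had a score of 1230, rank 132 of the list and rank 10 of the 455 on the chromosome. The remaining peak, chr4:154417127-154417476, lay 82.3 kb above the midpoint with a score of 168 and rank 5189. With windows of 50 kb on each side of the midpoint Hes5 kept only its weak near peak. On chromosome 4, 36.4% of the windows held at least 1 peak and 8.08% held as many as 3. The genes next to Hes5 are Mmel1, Prxl2b and Tnfrsf14, a receptor on lymphocytes, on the lower side and Pank4, Plch2 and Pex10, a peroxisome assembly gene, on the higher side.

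Hes7, the oscillator of the segmentation clock in the presomitic mesoderm, had 4 peaks between 68820001 and 69050000 on chromosome 11. A pair 4.51 kb apart flanked the midpoint. The peak above it, chr11:68935825-68936414, lay 1.12 kb away with a score of 379 and rank 1774, the highest of the window, and the peak below it, chr11:68931444-68931777, lay 3.39 kb away with a score of 219 and rank 3795. The latter was the narrowest of the 16 peaks, at 334 bp. The other peaks were weaker and all on the lower side. The peak chr11:68901778-68902189, at 33.0 kb, scored 120 and the peak chr11:68873541-68873949, at 61.3 kb, scored 193. Hes7 thus had a near pair with the higher scores and 2 weaker peaks further off.

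Chromosome 11 carried many peaks, 515 in all, and 49.2% of its windows held at least 1, so the presence of a peak says less here than elsewhere. As many as 4 peaks were found in 5.75% of its windows, and a highest score of 379 or more in 19.7%. On the lower side of Hes7 lie Tmem107, Vamp2, a vesicle fusion gene, and Per1, and on the higher side Aloxe3, Alox12b and Alox8, which encode lipoxygenases. Per1 is a core gene of the circadian clock.

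Hes6, an unusual member that is known to oppose Hes1, had 2 peaks between 93200001 and 93430000 on chromosome 1. The stronger, chr1:93309085-93309595, lay 5.66 kb below the midpoint with a score of 358 and rank 1955. The other, chr1:93355822-93356225, lay 41.0 kb above it with a score of 167 and rank 5236. Only the first exceeded the median of the list. On chromosome 1, 28.9% of the windows held at least 1 peak and 9.78% held as many as 2. Outside this pair no peak was listed for 716 kb on the lower side and 342 kb on the higher side, measured between centres. The gene order places Klhl30, Erfe, which encodes the iron regulator erythroferrone, and Ilkap below Hes6 and Per2, Traf3ip1 and Asb1 above it. Per2 is another core gene of the circadian clock.

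Hey1, a Notch target in the heart and vessels, had 1 peak between 8550001 and 8780000 on chromosome 3. That peak, chr3:8667133-8667693, lay 2.41 kb above the midpoint with a score of 639, rank 731 of the list and rank 36 of the 277 on the chromosome. It was the second highest score within 10 kb of any midpoint, after the Hes1 peak of 702. A midpoint as near to a peak was found at 0.811% of the points of chromosome 3, and a highest score as high in 5.34% of its windows. Its nearest neighbour was 256 kb away on the higher side, and none was listed for 1130 kb on the lower side. One peak alone is not rare, since 28.2% of the windows of this chromosome held at least 1. The neighbours of Hey1 are Zc2hc1a, Il7, a cytokine of lymphocyte development, and Stmn2 on the lower side and LOC115489673, Mrps28 and Tpd52 on the higher side.

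Hey2, which patterns the ventricles of the heart, was the exception near the midpoint. Its only peak between 30440001 and 30670000 on chromosome 10, chr10:30522757-30523243, lay 32.0 kb below the midpoint. Its score was 354, rank 1984, and its width was 487 bp. On chromosome 10, 14.0% of the points had a peak as near and 36.1% of the windows held at least 1 peak, so neither value set Hey2 apart. The peak was isolated. The nearest other peak was 806 kb away on the higher side and the next on the lower side 1440 kb away, a stretch of 2.25 Mb with this peak alone. A nearest neighbour as far away was listed for 2.97% of all peaks, and the median of the list was 59.1 kb. Trmt11, Hint3 and Ncoa7 lie below Hey2 and Hddc2, Tpd52l1 and Supt4b above it.

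The order of the highest scores differed from the order of the counts. The highest scores were 1339 for Hes1, 1230 for Hes5, 639 for Hey1, 379 for Hes7, 358 for Hes6 and 354 for Hey2. The last 3 lay close together. For the peak nearest the midpoint the order was another, with Hey1 at 639, Hes7 at 379, Hes6 at 358, Hey2 at 354, Hes5 at 185 and Hes1 at 98.0. The low value of Hes1 belongs to the neighbour, 389 bp wide, of its peak of 702. No error can be set on a score from 1 library, so neighbours in these orders cannot be called different.

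As a set the member peaks were ordinary in strength. Of the 16, 8 had a score at or above the median of the list, where 50% of all peaks lie. The upper quartile of the list, 402 and above, held 4 of them, where 25% of all peaks lie. Their median score was 278, against 247 in the whole list, and their median width was 478 bp, against 407 bp. Each of the 6 windows held at least 1 peak at or above the median, which 21.8% of all windows on these chromosomes did. Most of those windows held no peak at all. Of the 28537 that held any peak, 18121 held one at or above the median, so this value mostly follows from holding a peak. Together the 6 windows held 16 peaks, against a sum of 3.66 for the means of their chromosomes. The scores of those peaks lay near those of the whole list.

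**Figure D5:**
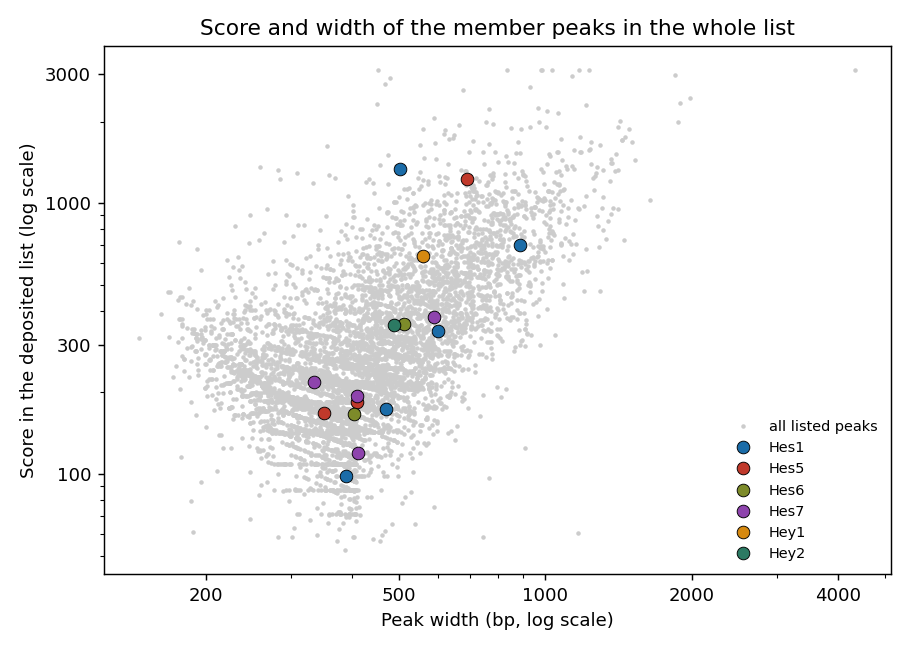
Score against width, both on log axes, for all 6505 listed peaks in grey and the 16 member peaks in colour. The member peaks lie inside the grey cloud, from 334 to 888 bp wide, with 1 Hes1 peak at 1339 and 1 Hes5 peak at 1230 as the highest.

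No listed peak lay close outside a window. The nearest such peak to any window edge was the peak chr11:69154141-69154375 beside Hes7, 104 kb beyond the edge with a score of 530. For the Hes1 window the nearest outside peak was chr16:29813897-29814311, 136 kb beyond the edge with a score of 356. Just inside an edge lay the Hes5 peak of 1230, at 10.2 kb, so the membership of this strong peak rests on the size of the window.

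The scores give a rough view of the reads behind some peaks. Take a score as the log10 of a Poisson tail, the probability of more reads than the peak held, multiplied by -10. Then 6 of the 16 scores have a single solution within 0.006 when the background is a whole number from 1 to 8, and 23.1% of all listed scores do. The Hey2 peak would then hold 38 reads over a background of 2, the near Hes5 peak 24 over 2, and the Hes7 peak below the midpoint 27 over 2. The Hes7 peak at 33.0 kb would hold 27 over 5, and the Hes1 peaks chr16:30064219-30064607 and chr16:30067052-30067521 would hold 24 over 5 and 27 over 3. These are read numbers solved from scores, not counts, and the scale of the scores is not stated in the labels.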

How the data were processed

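Per the labels, fixed cells of each condition went into a pulldown with an anti-Flag antibody and were sequenced as single 100-base reads. The submitters' processing notes name Bowtie 1.0, HOMER and mm9 without saying what each was used for. The deposited list gives each peak a score by the authors' caller, and the peak names start with MACS. For the settings of the caller, and any use of the control, the answer is not given in the sources used here.

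Windows were fixed by position. The members and lists were chosen with earlier results of these data known. Every peak with its centre in a window is named, and ranks count peaks with a higher score. The background is every window of 230 kb laid in steps of 10 kb between the outermost listed peaks of a chromosome. These windows overlap, so a peak is counted in many of them, and those over the members were not left out. The background is a description and no test was run. Starts are printed as counted from 1. RefSeq tables of GRCm38.p6 gave gene order (3 protein-coding genes on each side) and promoters, with no coordinates used. Peak sequences, gene starts and the planned list of other Notch pathway genes were not analysed here, because no mm9 genome or annotation was used. Alternatives were other window sizes, a stricter score, merged peaks, overlap in place of centres, other background windows and ranking by width. Tools were scipy 1.17.1, pandas 2.3.3, numpy 2.4.6 and matplotlib 3.10.9 under Python 3.11.15.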

Additional observations from a re-analysis of the deposited data

How the results depend on the processing

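Every window held a peak under each of the 5 alternatives run for that count. Wider windows, merged edges and any overlap could not empty a window. Only the windows of 50 kb on each side and the stricter score could have lowered this count. The number of peaks was 12 with 50 kb on each side of the midpoint, 18 with 250 kb, 15 with edges within 1 kb merged and 16 with any overlap. It was 11 without the Hes1 window and 8 among scores at or above the median of the list, where a stricter score can only lower it. The number of windows with a peak within 10 kb of the midpoint was 4 among those scores, where Hes5 dropped out, and 4 within 5 kb, where Hes6 dropped out. The share of all windows with a peak was 34.2% for windows laid end to end, 21.8% for scores at or above the median, 19.3% and 51.6% for 50 and 250 kb on each side, and 40.5% for windows with a peak within 1 Mb. The share of points with a peak within 10 kb was 2.46% for the stricter score and 5.45% for points with a peak within 1 Mb. Ranked by width, the leading Hes1 peak was that with a score of 702, and the leading peaks of Hes5, Hes6 and Hes7 did not change. Those of Hey1 and Hey2 could not change, because each of these windows held 1 peak. All alternatives for the distance of 10 kb, and leaving out Hes1, were chosen after seeing the data. No paired analysis was possible because there was only 1 library per condition, and no replicate could be left out. Sites too weak for the caller are not in the list, and without the depth their number cannot be judged.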
